A study of Mus musculus with 6 samples.

Results

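The cytosolic ribosomal protein genes were described in the retina of 2 inbred mouse strains. Members were the table entries whose symbol, after a trailing 3-digit transcript suffix was taken off, has the form Rpl or Rps with a number and at most an a, x, l or l1 behind it, together with Rplp0, Rplp1, Rplp2 and Rpsa. Symbols that mark a pseudogene (-ps) were left out. The rule used no measured value and found 83 of 30510 entries, 52 of the large (60S) subunit and its stalk and 31 of the small (40S) subunit. All 83 matched 1 gene of the GENCODE M21 annotation, which lists 1 of them, Rpl6l, as a processed pseudogene.

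Total RNA of both retinas was sequenced after stranded total RNA library preparation. C57BL/6J (B6), the strain from which the mouse reference genome was assembled, had 3 libraries, and DBA/2J (D2), a strain that develops a pigmentary glaucoma with age, had 3. Both groups are labelled wild type, with an age of 60 to 100 postnatal days and an RNA integrity number of 9.1 to 9.5, and the labels give no treatment. Whether each library of a strain stands for another mouse is not stated in the labels. P-values therefore set the strain difference only against the spread between these libraries. That spread may be technical and may leave out differences between mice. Reads of both strains were aligned to mm10, per the submitters' processing notes.

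A cytosolic ribosome is built from ribosomal RNA and 1 copy of nearly every ribosomal protein, so that the many genes of this family are transcribed at high and similar levels in most tissues. Their mRNAs begin with a run of pyrimidines, the 5′ terminal oligopyrimidine (TOP) tract, through which mTORC1 and the RNA-binding protein Larp1 set their translation. The family is also known for its processed pseudogenes, intronless copies made by reverse transcription of these mRNAs and spread over the genome, which share reads with the parent gene.

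The libraries held 29417002 to 43719666 counts, and the members took 1.45% to 1.46% of them in B6 and 1.45% to 1.53% in D2. The mean share was 1.45% ± 0.0077 (SD, n = 3) in B6 and 1.48% ± 0.046 (SD, n = 3) in D2. The ranges overlap, and an exact permutation test of 3 libraries against 3 cannot give a two-sided p under 0.1. The retina label was checked with marker genes, whose summed levels are in CPM (counts scaled to a common library size). These sums were not corrected by TMM factors, while the CPM levels of tested genes given below were. The 9 rod markers summed to 57067 to 57996 CPM in B6 and 54464 to 56348 in D2, with 1 marker higher and 1 lower in D2. The 6 cone markers summed to 1198 to 1221 and 987 to 1041 CPM, with 5 lower in D2, and the 7 ganglion cell markers to 687 to 817 and 589 to 622 CPM, with 4 lower and 1 higher. Bipolar (2 higher, 1 lower of 6), amacrine (1 higher of 6), horizontal (2 lower of 4), Müller glia (1 higher, 1 lower of 6), microglial (2 lower of 6), vascular (0 of 5) and ciliary epithelium (4 lower of 6) markers were all detected. Retinal pigment epithelium markers (0 of 5 called) ranged from 35.96 to 152 CPM, lens markers (1 lower of 4 tested) from 1.65 to 22.5, corneal markers (1 lower of 3) from 2.38 to 8.11 and muscle markers (2 higher of 5) from 5.65 to 7.60. Of 4 erythrocyte markers 3 were higher in D2, with sums of 61.7 to 95.8 CPM in B6 and 113 to 224 CPM in D2. Of 6 testis germ cell markers only Sycp1 passed the filter on low counts, and it was called higher in D2, with at most 1 count per B6 library and 141 to 192 per D2 library; the 6 summed to 0.274 to 0.383 CPM in B6 and 4.96 to 6.31 CPM in D2. In bulk tissue, fewer cells of a type and less RNA per cell cannot be told apart, and the part of cell composition in the differences below was not tested.

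Of the 83 members, 80 passed the filter on low counts, and 3 paralogues did not. Rpl10l, a testis-expressed copy of Rpl10, gave no count in B6 and 0, 1 and 1 counts in the D2 libraries. Rpl39l, also known from testis, gave 0, 0 and 2 counts in the B6 libraries and 2, 0 and 4 in those of D2. Rpl3l, which replaces Rpl3 in heart and skeletal muscle, gave 8, 4 and 14 counts in the B6 libraries and 7, 9 and 5 in those of D2. A library without any count could still hide 0.0686 to 0.102 CPM (3 counts, for counting error only), so neither strain showed these genes above a trace.

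The retina of the 2 strains differed in few ribosomal protein genes by more than a small fold. Of the 80 tested members 20 (25%) passed an adjusted p of 0.05 in edgeR's quasi-likelihood test, 11 higher and 9 lower in D2, against 29.7% of all 18588 tested genes (14.5% higher, 15.3% lower). Among the 3560 genes whose mean log2 CPM reached 6, a range that holds 75 of the members, 34.3% were called. The members' share of calls was thus below both backgrounds, and it is not a result particular to them. The 6 libraries separated by strain in 31 members (38.8%), in 20 with D2 above and 11 with D2 below B6, against 42.3% of all tested genes (21.4% above, 20.9% below). All 20 called members were among these 31.

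The log2 fold changes (D2 minus B6) were narrow. Their median over the 80 members was 0.02 with quartiles of -0.03 and 0.07, beside a median of 0.0046 with quartiles of -0.14 and 0.13 over all tested genes. The median size of the change, regardless of sign, was 0.06 for the members and 0.13 for all genes, and 0.06 for the 75 abundant members beside 0.07 for abundant genes. Of the members 5 (6.25%) differed by 1.3-fold or more, against 19.2% of all tested genes, and all 5 were called, beside 13.6% of all genes that were called at that fold. At 1.5-fold or more 3 members were left (3.75%), beside 8.97% of all genes called at that fold. These 5 were Rpl29, Rpl21, Rplp0 and Rpsa, lower in D2, and Rps23, higher in D2. The other 15 called members differed by less than 1.2-fold. The share past each fold was not counted among abundant genes alone, so these shares cannot be read as particular to the family.

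**Figure D1:**
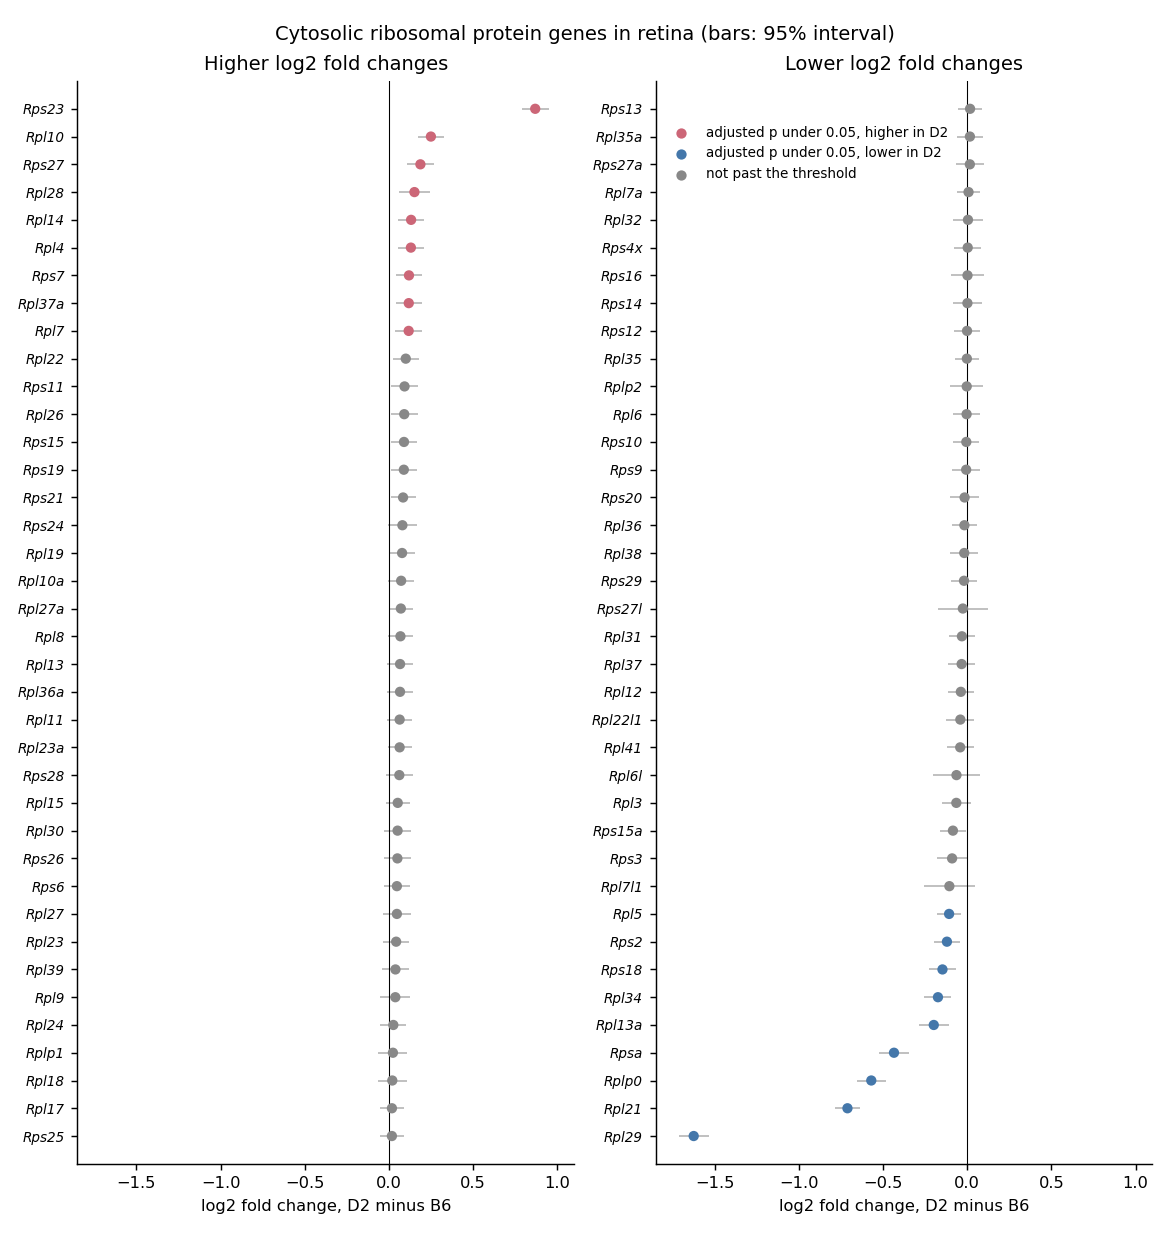
Log2 fold change (x axis, D2 minus B6) of 76 of the tested cytosolic ribosomal protein genes, ordered by size in 2 columns, with 95% intervals as bars. Red marks members called higher and blue those called lower in D2, grey marks members not past the threshold, and Rpl29, Rpl21, Rplp0, Rpsa and Rps23 stand apart from the rest.

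The calls of small size depended on single libraries. The count of members called higher in D2 fell from 11 to 7 without B6 replicate 2 and to 5 without D2 replicate 3. Within D2, the median member deviated from its strain mean by 0.04 on the log2 scale in replicate 3, where 75 of 80 members lay above that mean, and by -0.04 in replicate 2, where 2 of 80 did. The deviations in the other libraries were 0.0041 in D2 replicate 1 and 0.02, -0.02 and -0.0058 in B6 replicates 1, 2 and 3, while the median over all genes stayed between -0.0031 and 0.0027. The smallest called strain difference given below is 0.11 in size (Rpl5), and what moved the members together was not tested.

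Among the proteins of the large subunit, 6 members were higher, 6 lower and 37 not called. Rpl29 encodes a small basic 60S protein that mice can live without, and it showed the largest difference of the 80. Its gene lies at chr9:106429454-106431568 on the plus strand of mm10, with 4 exons. It was measured at 85.9, 86.3 and 89.1 CPM in B6 replicates 1, 2 and 3 and at 27.6, 27.7 and 29.4 CPM in D2. Every D2 library lay far below every B6 library, and the groups did not overlap. The level was 87.1 ± 1.75 CPM in B6 and 28.2 ± 1.01 in D2 (SD, n = 3 each), 3.08-fold lower (log2 fold change -1.62 ± 0.04 SE, edgeR adjusted p = 7.69e-13).

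Rpl21, a core 60S protein, lies at chr5:146832890-146837032. It was measured at 294, 279 and 288 CPM in B6 and at 179, 173 and 173 CPM in D2. The groups did not overlap, and Rpl21 fell 1.64-fold (log2 fold change -0.71 ± 0.04 SE, adjusted p = 7.18e-10), from a mean of 287 ± 7.59 to 175 ± 3.49 CPM (SD, n = 3).

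The ribosomal stalk recruits the elongation factors. It is made of Rplp0, which anchors it to the 60S body, and of Rplp1 and Rplp2, which form dimers on Rplp0. Rplp0, at chr5:115559467-115563727, was measured at 164, 154 and 153 CPM in B6 and at 106, 101 and 109.6 CPM in D2, so that every D2 library lay below every B6 library. It fell 1.48-fold (log2 fold change -0.57 ± 0.04 SE, adjusted p = 3.57e-08). Its partners did not pass the test. Rplp1 had 261, 273 and 267.5 CPM in B6 and 279, 256 and 279.7 CPM in D2 (log2 fold change 0.02, 95% interval -0.06 to 0.11). Rplp2 had 81.7, 89.99 and 82.7 CPM in B6 and 88.2, 80.02 and 85.9 CPM in D2 (log2 fold change -0.0030, 95% interval -0.10 to 0.09). The strains overlapped in both dimer-forming members. As background, Rplp0 is widely used as a reference gene in quantitative PCR.

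The other large-subunit members called lower changed little. Rpl13a, which also silences mRNAs of inflammation when released from the ribosome, was measured at 452, 441 and 448 CPM in B6 and at 394, 366 and 409 CPM in D2. The libraries did not overlap, and it fell 1.15-fold (log2 fold change -0.20 ± 0.04 SE, adjusted p = 0.00195). Of its exon bases 59.3% overlap Gm45713 or Mir5121 on the same strand, and reads there cannot be told apart. Rpl34 fell by 0.17 on the log2 scale, with 102 to 106 CPM in B6 and 87.8 to 94.7 CPM in D2 (adjusted p = 0.00243). Rpl5 carries the 5S ribosomal RNA with Rpl11 and, as that complex, binds the p53 ligase Mdm2. It fell by 0.11 (299.5 to 309 CPM in B6, 276 to 287 CPM in D2, adjusted p = 0.0273). Of its exon bases 46.6% overlap Fam69a on the opposite strand. Rpl11 did not pass the test, and its libraries overlapped (181 to 183 and 183 to 196 CPM, log2 fold change 0.06, adjusted p = 0.201).

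The 6 large-subunit members called higher rose by 1.08-fold to 1.19-fold. Rpl10, an X-linked gene (chrX:74270812-74273135) whose protein joins the 60S particle last and lies near the peptidyl transferase centre, was measured at 98.5, 96.6 and 92.8 CPM in B6 and at 118, 111.5 and 113 CPM in D2. Every D2 library lay above every B6 library, and it rose 1.19-fold (log2 fold change 0.25 ± 0.04 SE, adjusted p = 0.000106). The others were Rpl28, which budding yeast lacks (log2 fold change 0.15, adjusted p = 0.0129), Rpl14 (0.13, adjusted p = 0.0143), Rpl4, which lines the exit tunnel (0.13, adjusted p = 0.0118), Rpl37a (0.12, adjusted p = 0.0206) and Rpl7 (0.12, adjusted p = 0.0263). Their libraries did not overlap between strains, for example 75.9 to 79.1 CPM in B6 and 82.2 to 91.3 CPM in D2 for Rpl28. Each of these 5, and Rpl5, lost its call when 1 library was left out. Without D2 replicate 3 the adjusted p was 0.0702 for Rpl4, 0.0754 for Rpl28, 0.0605 for Rpl14, 0.11 for Rpl37a, 0.141 for Rpl7 and 0.051 for Rpl5. Without B6 replicate 2 it was 0.0916 for Rpl14, 0.0846 for Rpl37a and 0.101 for Rpl7. Without D2 replicate 1 it was 0.0771 for Rpl37a, 0.0643 for Rpl7 and 0.0797 for Rpl5, without B6 replicate 3 it was 0.0583 for Rpl7 and 0.0516 for Rpl5, without D2 replicate 2 it was 0.0979 for Rpl5, and without B6 replicate 1 it was 0.0829 for Rpl5.

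Among the proteins of the small subunit, 5 members were higher, 3 lower and 23 not called. Rps23 lies in the decoding centre, where it helps to hold translation accurate. Its gene lies at chr13:90922958-90924950 on the plus strand. It was measured at 217, 202 and 214 CPM in B6 and at 384, 378 and 394 CPM in D2. No D2 library came near the B6 range, and Rps23 rose 1.83-fold (log2 fold change 0.87 ± 0.04 SE, adjusted p = 1.7e-10), from 211 ± 7.73 to 385 ± 8.22 CPM (SD, n = 3). It was the 1 member marked past the authors' cutoff in the authors' deposited table.

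Rpsa, a 40S protein that is also known at the cell surface as a laminin receptor, lies at chr9:120127689-120132369. It was measured at 261, 252 and 264 CPM in B6 and at 191, 182 and 202 CPM in D2. The groups did not overlap, and Rpsa fell 1.35-fold (log2 fold change -0.44 ± 0.04 SE, adjusted p = 8.93e-07).

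**Figure D2:**
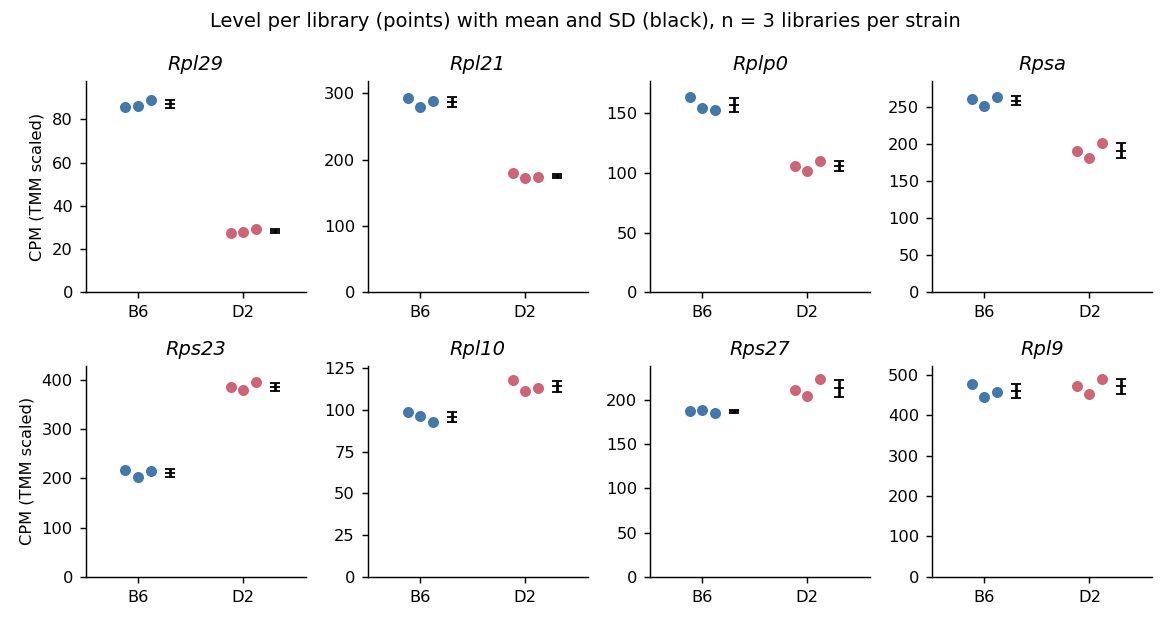
CPM per library (points), with mean and SD over 3 libraries in black, for 8 members in B6 (blue) and D2 (red), each axis starting at 0. Rpl29, Rpl21, Rplp0 and Rpsa are lower and Rps23, Rpl10 and Rps27 higher in each D2 library than in each B6 library, while the libraries of Rpl9, the most abundant member, overlap.

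Of the other small-subunit members, Rps27, a zinc finger protein, was measured at 187, 188 and 186 CPM in B6 and at 211, 204 and 223 CPM in D2. The libraries did not overlap, and it rose 1.14-fold (log2 fold change 0.19 ± 0.04 SE, adjusted p = 0.00133). Rps7, which like Rpl5 binds Mdm2, rose by 0.12 (246 to 259 and 265 to 279.5 CPM, adjusted p = 0.0221). Rps18, of the 40S head, fell by 0.15 (152 to 160.2 and 138.5 to 146 CPM, adjusted p = 0.00646), and Rps2, at the mRNA entry channel, by 0.12 (189 to 202 and 175 to 183 CPM, adjusted p = 0.0211). Their libraries did not overlap between strains. Both directions turned when the counts of their copies were added (Rps18 0.29, adjusted p = 1.87e-05; Rps2 0.12, adjusted p = 0.0188; the copies are described below). Rps7 was no longer called when B6 replicate 2 (adjusted p = 0.0977) or 3 (0.0641) or D2 replicate 1 (0.0657) or 3 (0.107) was left out, and Rps2 when B6 replicate 3 (0.0844) or D2 replicate 1 (0.0876) or 2 (0.073) was left out.

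The summed counts of the large subunit were 1.53 ± 0.0058 times those of the small subunit in B6 and 1.47 ± 0.011 times in D2 (SD, n = 3), with ranges of 1.53 to 1.54 and 1.45 to 1.48 that did not overlap. Without Rpl29, Rpl21, Rplp0, Rpsa and Rps23 the ratio was 1.57 ± 0.0041 in B6 and 1.57 ± 0.011 in D2, and the ranges overlapped. An exact permutation test of 3 against 3 cannot fall below 0.1, so neither ratio was tested.

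**Figure D3:**
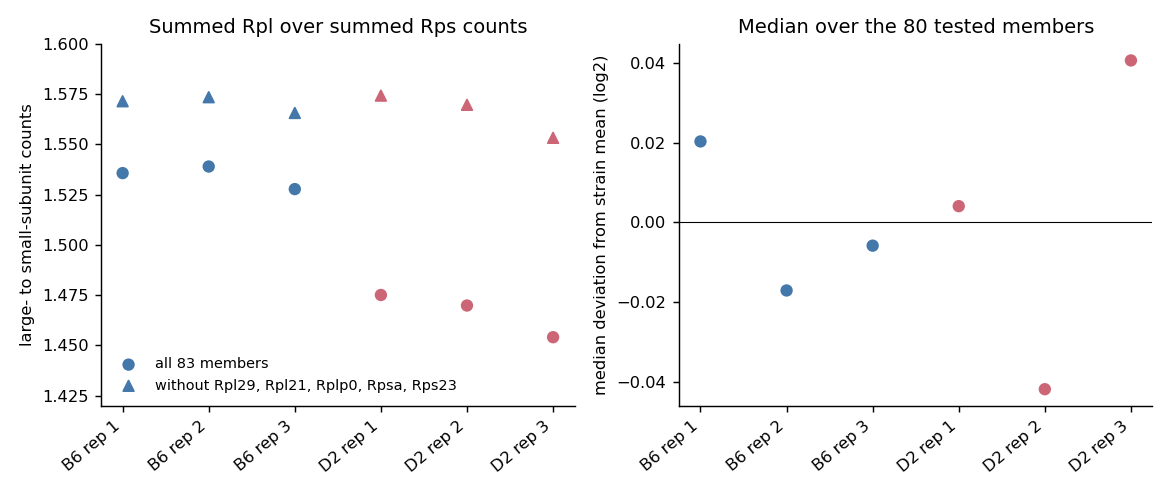
Left, summed large-subunit over small-subunit counts per library for all 83 members (circles) and without Rpl29, Rpl21, Rplp0, Rpsa and Rps23 (triangles), on an axis that does not start at 0. The genes left out were chosen by their strain difference in these libraries. Right, median deviation of the 80 tested members from their strain mean (log2), from -0.04 in D2 replicate 2 to 0.04 in D2 replicate 3.

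The 60 members that did not pass the test had log2 fold changes of -0.11 to 0.10, 38 above and 22 below 0. Their 95% intervals had a median half-width of 0.08 and reached from -0.26 at the lowest to 0.18 at the highest end. In 9 of them every D2 library lay above every B6 library (among them Rpl15, Rpl22, Rpl23a and Rpl26), and in 2 below (Rpl6l and Rps15a). Rpl22 had an adjusted p of 0.0529 and passed without B6 replicate 1 (0.0298), and Rps3 had 0.115 and passed without D2 replicate 3 (0.0469). The uncalled members include 4 of the 6 most abundant. Rpl9 had 444 to 478 CPM in B6 and 453 to 489.7 in D2, Rpl3, which stands near the peptidyl transferase centre, 409.9 to 442 and 393.5 to 419, Rps14 390.2 to 408 and 380.5 to 418, and Rps3, also a DNA repair protein, 394.5 to 409 and 358 to 397. Their libraries overlapped between strains. Rps6, whose phosphorylation by S6 kinases is read as mTORC1 activity, had 309 to 320.0 CPM in B6 and 312 to 335 in D2, and Rps27a, made as a fusion with ubiquitin, 188 to 195 and 184 to 202.

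Levels were compared between members per kilobase of coding length, since a longer mRNA gives more reads. Reads of untranslated parts enter the counts but not this length, so the levels were also taken per kilobase of the chosen transcript, an alternative added after seeing the data. Over the 76 tested members that are not l or l1 paralogues, the mean level of the strains ranged from 120 CPM per kilobase for Rpl29 to 2035 for Rpl41, which encodes the shortest protein of the family, with a median of 344 and a 10th to 90th percentile range of 219 to 709. Per kilobase of transcript the range was 26.1 for Rps20 to 669 for Rps14 with a median of 237, and Rpl41, at 281, was no longer the highest, so the order of the members depends on the length used. In the stalk, this level was 138 for Rplp0, 788 for Rplp1 and 246 for Rplp2, and per kilobase of transcript 96.7, 540 and 87.9. The percentage of a member's sequence that is shared with other genes (below) had a Spearman rho of -0.08 with these levels (Pearson r = -0.10 on log2 levels, n = 76 genes that share the same 6 libraries), of 0.18 with the levels per kilobase of transcript (r = 0.21), and of -0.0039 with the size of the strain difference (n = 76).

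Some ribosomal proteins have paralogues that can take their place in the particle. Rpl22l1, a paralogue of Rpl22 known from development and blood formation, stood at 45.5% ± 0.79 of the level of Rpl22 per kilobase of coding length in B6 and at 41.3% ± 0.90 in D2 (SD, n = 3). The ranges of 44.6% to 46.1% and 40.6% to 42.3% did not overlap, while neither gene passed the test by itself (Rpl22l1 log2 fold change -0.04, adjusted p = 0.479). Rpl7l1, related to Rpl7, stood at 10.9% ± 1.48 and 9.33% ± 0.69 of Rpl7, with overlapping ranges. Rps27l, a p53 target in other tissues, stood at 8.02% ± 0.099 and 6.90% ± 0.43 of Rps27, with ranges of 7.95% to 8.13% and 6.43% to 7.27%. Rps27 itself rose, and Rps27l had 14.8 to 15.2 CPM in B6 and 13.6 to 16.2 in D2 (log2 fold change -0.03, adjusted p = 0.819). Rpl6l, with 84.4% of its sequence shared, had 11.75 to 11.9 CPM in B6 and 10.7 to 11.69 in D2 (log2 fold change -0.06, adjusted p = 0.522). Rpl3l, Rpl39l and Rpl10l were each below 0.11% of Rpl3, Rpl39 and Rpl10 in every library. Per kilobase of transcript, Rpl22l1 stood at 37.3% and 33.8%, Rpl7l1 at 4.42% and 3.79%, and Rps27l at 5.54% and 4.77% in B6 and D2. These ratios were chosen as descriptions and were not tested.

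The members share long stretches with other genes, which bears on every count given here. Each stretch of 31 bases (a word) of a member's annotated transcripts was looked up, on either strand, in the transcripts of all other annotated genes. Genes that overlap a member at its own locus were not set aside, so the sharing is not with pseudogenes alone. Of the 83 members 82 share at least 1 word with another gene and 35 share 50% or more of their words. Among the 76 the median was 46.0%, with 99.0% for Rpl35 at the upper end. Of the exon bases of Rpl35, 68.3% overlap Wdr38 or Arpc5l on the opposite strand. In 13 tested members, 5% or more of the exon bases overlap another gene. Rps20 shares a word with 1234 genes, of which 18 are processed pseudogenes. An annotated 1671 processed pseudogenes share a word with a member, a median of 15 and at most 162 (Rpl7a) for each, but 36 of them have an entry in the count table. Where reads of the others went, and how the authors treated reads that align to several places, is not stated in the labels.

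In the count table, 37 entries have at least 20% of their words in a member and are called copies here. Of 32 that passed the filter 11 were higher and 1 lower in D2 (37.5% called), beside 29.7% of all tested genes. The copies took 0.0407% to 0.0419% of the counts in B6 and 0.0520% to 0.0552% in D2. Adding each copy's counts to its member, an alternative chosen after seeing the data, gave 21 calls, 14 higher and 7 lower in D2. It reversed 2 members, Rps18 and Rps2, and brought Rpl15 past the threshold.

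Rps18 (chr17:33951999-33956001, minus strand) shares 86.2% of its words with other genes, and its copy Gm10260 lies at chr13:97760072-97760632, where it is annotated as protein-coding. Their coding sequences, 456 bases long, differ at 4 positions with no gap (99.1% identity). A stretch of both, coding bases 312 to 371 in GENCODE M21 on mm10, is shown because it holds 2 of these differences (capitals) and shows how few bases part reads of the gene from reads of its copy.
Rps18: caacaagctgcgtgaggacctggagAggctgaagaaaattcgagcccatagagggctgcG
Gm10260: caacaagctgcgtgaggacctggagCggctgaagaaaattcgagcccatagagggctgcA
Gm10260 gave 121, 103 and 83 counts in the B6 libraries and 1552, 1686 and 1921 in those of D2. No D2 library came near a B6 library, and Gm10260 was 20.2-fold higher in D2 (2.65 ± 0.16 and 53.6 ± 1.72 CPM, log2 fold change 4.34 ± 0.06 SE, adjusted p = 9.34e-16). The summed counts of Rps18 and Gm10260 were higher in D2 (log2 fold change 0.29 ± 0.04 SE, adjusted p = 1.87e-05), where Rps18 alone was lower, and the copy made up 1.66% of the sum in B6 and 27.4% in D2. The base each strain carries at these positions was not measured.

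Rps2 (chr17:24718116-24721929) has 6 copies in the table, of which 4 were higher in D2. Rps2-ps6 (chr14:76236691-76237545) gave 631, 566 and 462 counts in the B6 libraries and 824, 944 and 1123 in those of D2, that is 14.4 ± 0.65 and 29.97 ± 2.04 CPM (2.09-fold higher, adjusted p = 2.99e-09). Gm6311-201 rose 1.77-fold (22.3 ± 0.86 to 39.6 ± 1.03 CPM, adjusted p = 3.26e-09). Gm5786 and Gm6576 had log2 fold changes of 0.46 and 0.35 (adjusted p = 9.41e-05 and 0.0202). The coding sequence of Rps2 and Rps2-ps6 aligned over 855 bases with 7 differences and 1 gap, of which 2 differences fall in coding bases 241 to 300, shown as a member and copy that moved in opposite directions.
Rps2: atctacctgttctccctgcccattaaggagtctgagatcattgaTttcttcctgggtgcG
Rps2-ps6: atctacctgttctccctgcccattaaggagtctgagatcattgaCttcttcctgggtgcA
Rps2 and its 6 copies together were higher in D2 (log2 fold change 0.12 ± 0.04 SE, adjusted p = 0.0188), and with the -ps copy alone the sum stood at 0.00064 (adjusted p = 0.992), against -0.12 for Rps2 alone. The copies made up 23.3% of the sum in B6 and 35.1% in D2.

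Rpl29, the member that fell most, kept its direction when copies were added. It shares words with 123 processed pseudogenes. Its copy Gm10709 (chr9:7751725-7752204) rose 1.428-fold (9.40 ± 0.34 to 13.4 ± 0.44 CPM, adjusted p = 3.35e-05) and differs from it at 4 of 480 coding bases, of which 2 fall in the stretch from 398 to 457.
Rpl29: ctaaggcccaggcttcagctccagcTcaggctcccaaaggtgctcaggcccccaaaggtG
Gm10709: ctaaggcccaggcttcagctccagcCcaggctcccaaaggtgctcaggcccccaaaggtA
A further copy, Gm17669, gave 412, 382 and 329 counts in the B6 libraries and 11, 7 and 14 in those of D2 (28.97-fold lower, adjusted p = 1.47e-11). With all 3 copies in the table added, Rpl29 was still lower in D2 (log2 fold change -1.34 ± 0.04 SE, adjusted p = 1.66e-12).

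The Rps23 coding sequence occurs, on the opposite strand, inside 2 longer genes, named here after their values were seen. It aligned to Gm5148 (chr3:37714190-37724490) over 398 bases with no difference and to C330021F23Rik (chr8:3567990-3584939) over 398 bases with 2 differences. The first 60 coding bases are shown because they cannot tell Rps23 from Gm5148 at all, and differ from C330021F23Rik by the base in capitals.
Rps23: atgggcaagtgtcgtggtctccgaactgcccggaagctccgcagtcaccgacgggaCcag
C330021F23Rik: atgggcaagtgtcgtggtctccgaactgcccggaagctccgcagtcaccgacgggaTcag
Gm5148 rose from 69.6 ± 1.21 to 121 ± 2.34 CPM (log2 fold change 0.80 ± 0.03 SE, adjusted p = 1.63e-10), and C330021F23Rik from 29.1 ± 0.84 to 49.6 ± 0.65 CPM (0.77 ± 0.04 SE, adjusted p = 2.31e-09). Both rose beside Rps23 (0.87), and since no label states whether strand was used in counting, reads of Rps23 and Gm5148 cannot be told apart in that stretch. Neither gene was among the copies added to Rps23. Rpl15 was not called alone (log2 fold change 0.05, adjusted p = 0.264), while its copy Gm10020 rose 1.51-fold (32.3 ± 1.098 to 48.6 ± 2.14 CPM, adjusted p = 1.41e-07). Together they were higher in D2 (0.14 ± 0.03 SE, adjusted p = 0.00475).

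**Figure D4:**
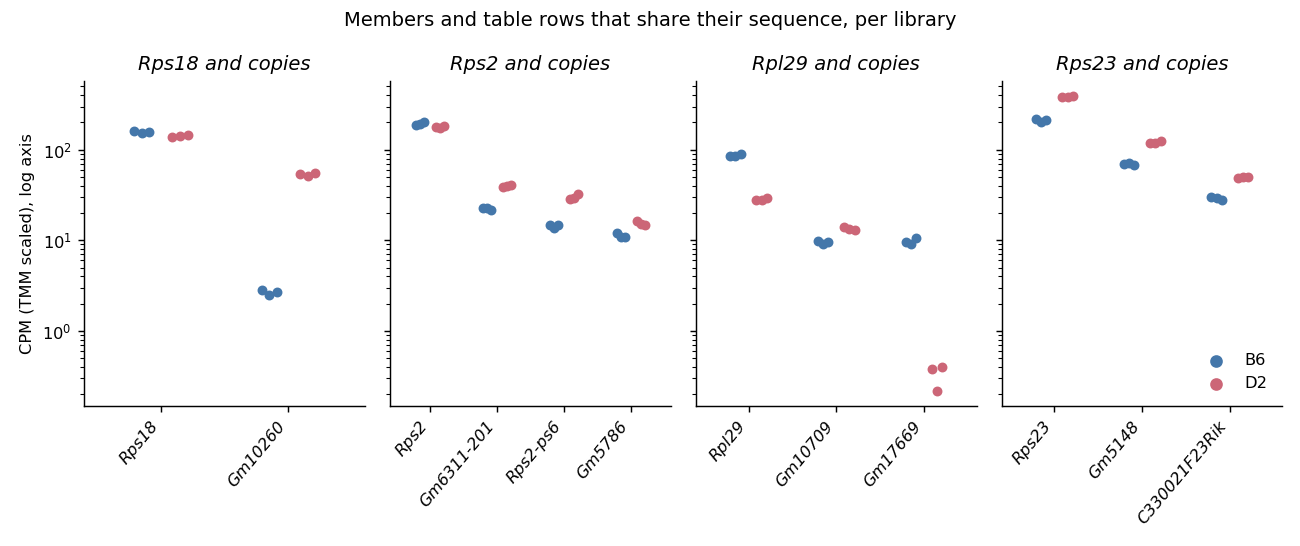
CPM per library on a log axis for Rps18, Rps2, Rpl29 and Rps23 and for table entries that share their sequence, in B6 (blue) and D2 (red). Rps18 and Rps2 are slightly lower in D2 while Gm10260 (20.2-fold) and the Rps2 copies shown are higher. Beside Rpl29, which is lower in D2, Gm17669 falls and Gm10709 rises, and Gm5148 and C330021F23Rik rise with Rps23.

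Genes beside the 5 members past 1.3-fold were looked up after the values were seen, 3 tested protein-coding genes on each side. Of 6 neighbours 6 were called beside Rpl29, 4 beside Rpl21, 5 beside Rplp0, 3 beside Rps23 and 2 beside Rpsa, with 29.7% called among all genes. The directions were mixed beside Rpl29. Abhd14a, 8.48 kb from it, fell 3.60-fold (34.2 ± 1.09 to 9.53 ± 0.52 CPM, adjusted p = 3.29e-12), and Abhd14b, 15.9 kb away, rose 2.08-fold (69.7 ± 4.27 to 144 ± 9.40 CPM, adjusted p = 5.73e-10).

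The start sites were read from the RefSeq promoter table (GRCm38.p6), which held 62 of the 83 members. A C at the annotated start with at least 5 pyrimidines in a run, the form of a TOP tract, was found in 13 of 62 (21%) and in 3.01% of 27025 genes of the table. Such a tract began within 10 bases of the annotated start in 62.9% of the members and 34.4% of all genes. It was present at the start in 4 of 15 called and 9 of 44 uncalled members with an entry. The 4 called ones are shown as windows of 30 bases, 20 before and 10 from the start on, with the tract in capitals. Each window is at the listed start with the longest tract. They are shown because these are the called members with an annotated start that carries the letters that mark the family.
Rps18 (chr17:33955656-33955685, minus strand): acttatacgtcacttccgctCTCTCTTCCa
Rpl14 (chr9:120571497-120571526, plus strand): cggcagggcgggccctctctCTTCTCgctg
Rpl28 (chr7:4792945-4792974, plus strand): tcgtcccgcctctcgtgtctCTCTTTCCgt
Rps27 (chr3:90213639-90213668, minus strand): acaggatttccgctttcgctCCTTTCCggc
The tracts are 9, 6, 8 and 7 bases long, and Rpl14, Rpl28 and Rps27 were higher and Rps18 lower in D2. Over the window from 250 bases before to 50 after the start, on either strand and with overlaps between motifs allowed, the ETS core CCGGAAG was found in 40.3% of members and 9.93% of all genes, the GC box GGGCGG in 61.3% and 38.2%, the YY1 core AAGATGG in 16.1% and 7.28%, and the TATA box TATAAA in 11.3% and 15.7%. The ETS core was present in 33.3% of called and 43.2% of uncalled members.

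Other genes of the ribosome and of translation were described by lists, beside 29.7% called among all genes. Of 4 further genes of cytosolic ribosomal proteins, 3 rose. Fau, which yields Rps30, rose by 0.16 (adjusted p = 0.00478) and Rack1, a 40S scaffold, by 0.15 (adjusted p = 0.00658), while Rpl36al had a log2 fold change of -0.01. The libraries of the 3 called genes did not overlap. Of 77 mitochondrial ribosomal protein genes, which serve the separate ribosome of mitochondria, 5 rose and 10 fell, with a median of -0.0085. Mrps14 rose by 0.45 and Mrpl35 fell by 0.62.

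Of 10 elongation factors, 0 rose and 2 fell, Eif5a2 (log2 fold change -0.48) and Eef1a2 (-0.10), while Eef1a1, the most abundant at 2254 ± 49.4 and 2356 ± 92.3 CPM, was not called. Of 38 initiation factors, 3 rose and 6 fell, among them Eif3j1 (-0.50), the helicase Eif4a1 (-0.25) and the poly(A)-binding Pabpc1 (-0.19). Of 9 other mRNAs with a TOP tract, 2 rose, Tpt1 and Naca (0.16 each), and 2 fell, Vim (-0.21) and Cct4 (-0.11). Of 42 genes of ribosome biogenesis 3 rose, with Nop10 (0.42) the lowest in adjusted p, and 4 fell, among them Rrs1 (-0.51). The medians of these lists lay between -0.02 and 0.01.

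Of 20 genes of mTORC1 and TOP control, 5 rose and 1 fell. Deptor, an mTOR inhibitor, had 13.4, 17.1 and 12.5 CPM in B6 and 21.2, 22.3 and 21.1 CPM in D2, a log2 fold change of 0.58 (adjusted p = 0.000143). Eif4ebp1, which holds back cap-dependent initiation, had 0.624, 0.963 and 0.900 CPM in B6 and 1.80, 1.85 and 2.16 CPM in D2 (1.23, adjusted p = 0.000279). Both were higher in each D2 library. Larp1 (0.05) and Mtor (0.05) were not called. Of 10 tested transcription factors of ribosomal genes 2 rose, Mycl (0.38) and Mycn (0.28), the second with overlapping libraries. Of 11 tested p53 targets, 1 rose, Mdm2 (0.20), and 5 fell, with a list median of -0.13.

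**Figure D5:**
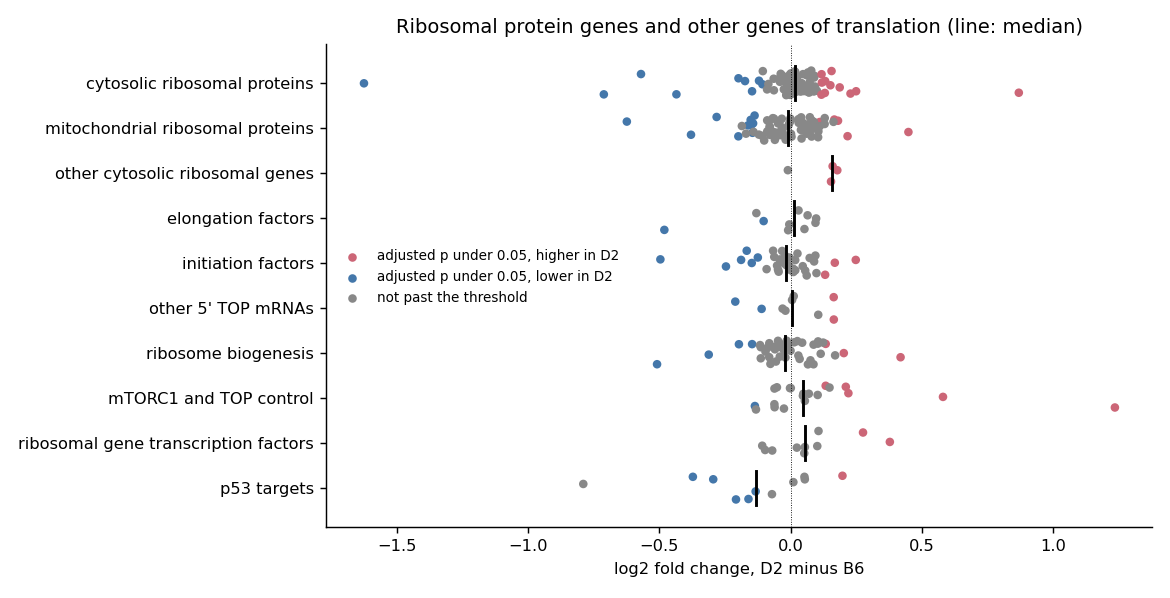
Log2 fold change (x axis, D2 minus B6) of each tested gene of the cytosolic ribosomal protein genes and of 9 lists of ribosome and translation genes, with list medians as black lines. Most genes of every list lie within 0.2 of 0, and Rpl29 is the lowest point of the plot at -1.62.

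In the authors' deposited table, which lists 80 members, 36 had a false discovery rate under 0.05, 27 with the higher score in D2 and 9 in B6. Of these, 19 were called in the same direction by the edgeR test given here. The share of all genes in the authors' deposited table under that rate was not counted, nor was its split by direction. The 36 members and their lean to D2 can therefore not be read as particular to the family. Rps18 was called here and had a false discovery rate of 0.137 in the authors' deposited table. Rps23 had a false discovery rate of 5.51e-234 and Rpl29 of 1.47e-40 there.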

How the data were processed

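Total RNA of mouse retina was measured in 6 libraries, grouped by the strain in their labels. The deposited count table holds raw counts by symbol. A second table, deposited by the authors, holds a scaled score for each strain and a false discovery rate, which serves as their adjusted p-value; the test behind it is not given. Per the submitters' processing notes, mm10 was the build, and FastQC, STAR, SAMtools and edgeR were used. Their versions, the counter, annotation and strand setting are not given.

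The members and the gene lists were chosen with earlier results of these data known. Counts were filtered with filterByExpr, scaled with TMM factors and fitted with edgeR 4.0.16 (quasi-likelihood, strain as the only term, R 4.3.3) over 18588 genes, with Benjamini-Hochberg adjustment over all of them and a threshold of 0.05. CPM values carry the TMM factors, except the marker sums and the floor of 3 counts, which were scaled by total counts alone. Alternatives were other size factors, DESeq2 1.42.0, limma-voom (limma 3.58.1), other filters, a replicate block, each library left out, abundant RNAs removed, copies added to members, and levels per transcript length. Same-numbered libraries had correlations of 0.14, 0.07 and -0.03 of their deviations, so the numbers were not taken as pairs. No pair of libraries agreed within sampling noise (chi-square per degree of freedom 6.22 to 24.6). In simulated counts, 4, 34, 50 and 50 of 50 genes changed by 1.1, 1.2, 1.5 and 2-fold were called, and 9 of 18242 unchanged genes.

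Named members were called members whose libraries did not overlap, up to 10 in each direction, the 6 most abundant, the paralogues and their parents, the stalk, Rpsa, Rps6 and Rps27a. Up to 4 called genes were named per list, and up to 6 copies whose mean log2 CPM reached 1; Gm5148, C330021F23Rik, Gm5786, Gm6576 and the other exceptions were chosen after their values were seen. Coding and transcript lengths and sequences are from GENCODE M21. Tables were made with Python 3.11.15. Some members are not reported here by name, though they count in the totals.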

Additional observations from a re-analysis of the deposited data

How the results depend on the processing

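The count of members called was 20 (11 higher, 9 lower in D2) with DESeq2 size factors, upper quartile factors, factors from the other genes, the DESeq2 Wald test, limma-voom, either filter and without the abundant RNAs. It was 19 with the -ps copies added and 21 with all copies added, the latter chosen after seeing the data. With the replicate number as a block it was 18, since Rpl5 and Rpl7 lost their calls (adjusted p = 0.0536 and 0.051). Leaving out 1 library gave 14 to 21 members, 5 to 14 of them higher in D2 and 7 to 9 lower. The lists held 54 called genes, 46 with the replicate block and 36 to 48 with 1 library left out. Over all genes 5524 were called, 5093 with the block, 4532 with DESeq2 and 4502 to 5171 with 1 library left out. Of the 20 calls, 11 held under all 17 alternatives, and 16 under those that kept all 6 libraries.

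Signs changed in Rps2 with the -ps copy (0.00064) or all copies added (0.12), and in Rps18 with its copy added (0.29). Otherwise they changed only in uncalled members near 0. Rps14 (main value 0.0011) was at -0.0022 with DESeq2 size factors, -0.0032 with upper quartile factors, -0.0021 with DESeq2, -0.0014 with the filter of 1 CPM and -1.76e-05 without abundant RNAs. With 1 library left out it ranged from -0.032 to 0.035, Rpl6 from -0.021 to 0.028, Rplp2 from -0.031 to 0.037, Rps27a from -0.020 to 0.048 and Rps27l from -0.10 to 0.026. The cause of these sign changes was not tested.

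The members had a median standard error of 0.04 with 3 libraries per strain. In simulated data 4 of 50 genes were called at 1.1-fold and 34 of 50 at 1.2-fold. There 18242 of 18442 genes were unchanged, while 29.7% of the real genes were called, and many changed genes were less abundant than the members. The simulation therefore does not give the sensitivity for the members, of which 7 were called at less than 1.1-fold. Sequence shared with unlisted pseudogenes limits every member's value by an amount that was not tested.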
